A study of Rattus norvegicus with 6 samples.

Results

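The plasma and acute phase protein genes were read by 24 of the 8799 probe sets of the array. These were 6 probe sets for A2m, 3 for Crp, 4 for Alb, 1 for Hp, 2 for Fgb, 2 for Apoa1, 3 for Cp, 1 for Orm1 and 2 for Ambp. A probe set was taken as a member when the array annotation gave it exactly 1 gene symbol and that symbol was one of these 9. 1 further probe set carried a member's symbol beside another and was counted but not named. The 9 genes had been chosen by their values on these same arrays, among them their ARB against control differences. Differences of members between groups are therefore given as descriptions, with no p-value.

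Plasma proteins are made mainly by the hepatocytes of the liver and are secreted into the blood. During inflammation, interleukin-6, interleukin-1 and glucocorticoids act through STAT3, C/EBP and NF-kappaB on their promoters, and transcription of the positive acute phase genes (in the rat A2m, Orm1, Hp, Fgb and Cp) goes up while that of negative ones such as Alb goes down. The brain makes a few of them itself: astrocytes carry a membrane-bound form of ceruloplasmin, and the choroid plexus secretes transthyretin.

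RNA of brain capillaries from 6-week-old stroke-prone spontaneously hypertensive rats (SHRSP), which inherit severe hypertension and are prone to stroke, was hybridised to 6 Affymetrix RG_U34A arrays, 2 per group. The groups were SHRSP control, SHRSP ACEI (lisinopril at 6 mg/kg per day, which blocks angiotensin-converting enzyme) and SHRSP ARB (olmesartan at 4 mg/kg per day, by mouth, which blocks the angiotensin type 1 receptor). The labels also name 1% NaCl without saying whether every group or the controls alone received it. Nothing in the labels says that the 2 arrays of a group came from separate animals, so standard errors cover only the spread between these arrays. In capillary RNA of this kind, fewer cells of a type and less RNA per cell cannot be told apart.

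Each probe set had 1 deposited intensity per array, and the arrays had been scaled to nearly the same trimmed mean (997.7 to 1002). The arrays nevertheless differed. The Gapdh control probe sets give a 3'/5' ratio that goes up when RNA is broken or incompletely copied, and it was 7.31 on control 2 and 0.933 to 1.59 on the other 5 arrays. The same ratio for beta-actin was 3.15 on control 2, 2.05 and 1.65 on the ARB arrays and 1.04 to 1.35 on the other 3. The endothelial marker Pecam1 was low on control 2, at 193.8 against 5538.3 on control 1, and read 552.7 and 316.6 on ARB. By contrast, the brighter probe set of Slc2a1, the glucose transporter of brain endothelium, read 27457 or more on every array. The other Slc2a1 probe set was lower on ARB than on control, with a log2 difference of -1.69. The ARB arrays stood apart at the dim end. The 15 control probe sets for foreign bacterial transcripts had a median intensity of 91.4 and 80.9 there and of 18.4 to 28.8 on the other arrays, and the median of all 8740 non-control probe sets was 486.7 and 495.7 against 246.1 to 354.3. The 9 bright controls added at hybridisation (BioB, BioC, BioD, Cre) were also higher on ARB, with medians of 7525 and 5387 against 1012 to 3274. Control 1 and ACEI 1 were run on an earlier day than the other 4 arrays, which include both ARB arrays, so that for ARB only control 2 shares the run day.

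As a group, the members read higher on the ARB arrays than on the controls, and so did the array as a whole. On the log2(intensity + 90) scale 22 of 24 members were higher on ARB than on control, with a median difference of 0.75, against 0.43 over all probe sets, of which 69.6% were higher. After quantile normalization, which brought the median of all probe sets to 0.01, 15 of 24 members were higher, and 14 of 24 after cyclic loess. Both ARB arrays lay above both controls for 16 of 24 members (43.9% of all probe sets did) and below both for 1 (11.1%). When each intensity was replaced by its rank within its own array the counts were 7 of 24 (23.6% of all probe sets) and 2 of 24 (19.3%). Since the members were listed with this contrast in view, nothing is read from these counts. Across all genes, limma called no probe set in any of the 3 contrasts at an adjusted p of 0.05 (0 of 5244 in each, 0%). At an unadjusted p under 0.05 it had 659 higher (12.6%) and 246 lower (4.69%) for ARB against control, 63 higher (1.2%) and 73 lower (1.39%) for ACEI against control, and 819 higher (15.6%) and 352 lower (6.71%) for ARB against ACEI. Without control 2 the adjusted count for ARB against control was 91, and without control 1 it was 16.

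Against ACEI the picture was much the same: 22 of 24 were higher on ARB (68.6% of all probe sets), with a median of 0.82 against 0.43 over all probe sets. Both ARB arrays exceeded both ACEI arrays for 17 of 24 (46.9% of all probe sets), and by rank for 10 of 24 (29.2%). For ACEI against control 7 of 24 were higher (46.1% of all probe sets) and 17 lower, with a median of -0.35 against -0.03 over all probe sets. Both ACEI arrays lay below both controls for 6 members (12.9% of all probe sets) and above both for 2 (11.6%). The lower ACEI median rested on single arrays: 16 of 24 members had their lowest value on ACEI 2, where 33.8% of all probe sets had theirs, and the median was 0.00 without ACEI 2 and 0.01 without control 2. The 3 contrasts share arrays, so their values are only set side by side.

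**Figure D1:**
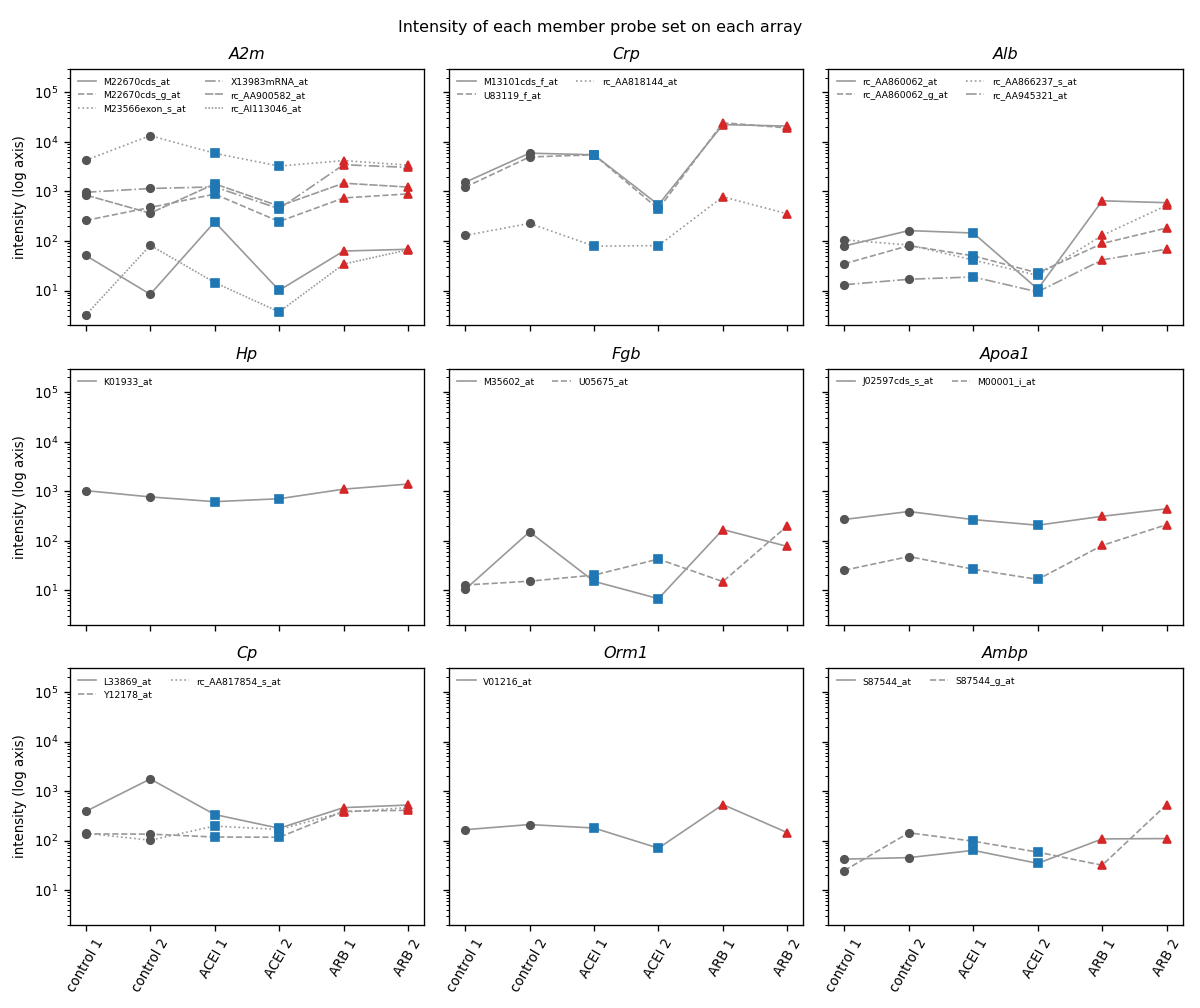
Intensity (log axis) of each of the 24 member probe sets on the 6 arrays, 1 panel per gene; points are single arrays (circles control, squares ACEI, triangles ARB) and lines join the values of 1 probe set without implying an order. The highest value lies on an ARB array for 20 of 24 probe sets, and probe sets of 1 gene differ widely, as for A2m and Cp.

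RefSeq promoter windows on GRCr8 were matched for 6 of the 9 genes (Crp, Alb, Fgb, Cp, Orm1 and Ambp). They are shown for 4 genes because several members are textbook targets of the acute phase factors. Any link between these letters and the ARB values was not tested. Each run is the 250 bases before the start, 5′ to 3′, with matches to the searched motifs in capitals.
Crp (chr13:87693812-87694061, plus strand): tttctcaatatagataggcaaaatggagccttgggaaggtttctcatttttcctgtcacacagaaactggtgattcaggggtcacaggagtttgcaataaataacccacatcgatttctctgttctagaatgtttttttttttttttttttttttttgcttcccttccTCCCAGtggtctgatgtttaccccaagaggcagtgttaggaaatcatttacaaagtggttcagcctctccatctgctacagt
Alb (chr14:17906980-17907229, minus strand): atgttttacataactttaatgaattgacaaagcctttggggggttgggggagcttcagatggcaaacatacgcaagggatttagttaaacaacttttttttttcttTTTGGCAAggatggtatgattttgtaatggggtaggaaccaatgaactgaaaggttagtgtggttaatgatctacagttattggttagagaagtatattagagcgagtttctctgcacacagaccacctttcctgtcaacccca
Fgb (chr2:170700876-170701125, minus strand): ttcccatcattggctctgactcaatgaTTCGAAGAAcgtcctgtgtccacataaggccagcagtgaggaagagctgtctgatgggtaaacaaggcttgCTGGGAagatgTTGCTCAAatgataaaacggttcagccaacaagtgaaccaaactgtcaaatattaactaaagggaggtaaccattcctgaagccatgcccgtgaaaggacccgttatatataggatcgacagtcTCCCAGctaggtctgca
Cp (chr2:104368420-104368669, plus strand): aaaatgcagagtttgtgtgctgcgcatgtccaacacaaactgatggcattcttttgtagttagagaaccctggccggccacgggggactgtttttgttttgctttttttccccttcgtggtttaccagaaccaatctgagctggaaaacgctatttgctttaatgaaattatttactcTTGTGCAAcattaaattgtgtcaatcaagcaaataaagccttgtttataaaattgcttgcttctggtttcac
The motifs were searched on both strands and were TTCNNNGAA for STAT, CTGGGA for the type 2 IL-6 response element, TTGCNNAA for C/EBP and the palindromic HNF1 motif. The Fgb window holds the most matches: a STAT match at -223 to -215, CTGGGA at -152 to -147 and its reverse complement at -17 to -12, and a C/EBP match at -141 to -134 that overlaps none of these. The Crp window holds 1 reverse complement of CTGGGA, at -82 to -77. The C/EBP letters are found at -144 to -137 in Alb, at -72 to -65 in Cp and at -123 to -116 in Orm1, so that 4 of 6 member windows have them against 9.22% of 33469 RefSeq windows of the same length. STAT letters are in 1 of 6 (7.67% of all windows), CTGGGA in 2 of 6 (25.7%) and the HNF1 letters in 0 of 6 (0.00299%). A match is a run of letters and no measured site.

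A2m, the broad protease inhibitor that is the strongest acute phase protein of the rat, had 6 probe sets whose patterns over the arrays differed. X13983mRNA_at read 965.0 and 1150.1 on the controls, 1238.3 and 447.4 on ACEI and 3474.5 and 3064.7 on ARB. Its ARB arrays lay above all others, by 1.55 ± 0.54 (log2 difference ± SE, n = 2 per group) against control and 1.99 ± 0.54 against ACEI. Among probe sets of like brightness (the same 1 of 5 equal groups by mean intensity) its ARB against control difference was at the 96.2 percentile. The other A2m probe sets were at 11.9, 12.5, 32.1, 82.7 and 86.6 in their groups. The genes were chosen with this contrast in view, so nothing is read from these percentiles. The difference of X13983mRNA_at was 1.67 without control 2, 1.44 on the later run day alone, and 1.63 after quantile normalization. It was 0.81 after each array was divided by its median. By rank, too, both ARB arrays of this probe set were above both controls. In a comparison added after the data had been seen, the gene with the most similar pattern was Alpi (r = 0.998). The correlation of X13983mRNA_at with the bright Crp probe set M13101cds_f_at was 0.966.

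The brightest A2m probe set went the other way. M23566exon_s_at, whose suffix marks probes shared by similar transcripts, read 4275.9 and 13438.0 on the controls, 5899.0 and 3253.8 on ACEI and 4213.9 and 3395.2 on ARB. Both ARB arrays were below both controls, with a difference of -0.99 ± 0.63, but control 1 and ARB 1 were nearly equal. Control 2, the array with the high Gapdh ratio, was 3.14 times control 1, and without it the difference was -0.17. The part of RNA quality in this value was not tested. By the named-gene rule the tested genes with the most similar pattern over the 6 arrays were Ndufb6 (Pearson r = 0.991), Atp5pf (0.982), Myrf (0.982), Pgam1 (0.980) and Acly (0.974), all of them highest on control 2. Its own correlation with X13983mRNA_at was -0.08, so the 2 brightest A2m probe sets followed different patterns.

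The other A2m probe sets gave smaller or less regular differences. rc_AA900582_at read 846.5 and 364.9 on the controls, 1425.0 and 507.2 on ACEI and 1470.3 and 1227.2 on ARB, a difference of 1.14 ± 0.60 between ARB and control that was 0.61 without control 2 and 1.66 without control 1. M22670cds_g_at read 260.7 and 475.9, then 885.9 and 247.3, then 740.3 and 894.0, with a difference of 1.02 ± 0.60 that was 0.68 without control 1. Division by the array median left 0.44 and 0.35. For both, ARB exceeded both controls while ACEI 1 was within the ARB range, so that ARB and ACEI overlapped. M22670cds_at and rc_AI113046_at were dim, between 3.2 and 243.2 on all arrays, and were below the filter. Their ARB against control differences of 0.40 and 0.14 turned negative under quantile normalization (-0.08 and -0.31). By intensity 4 of the 6 A2m probe sets had both ARB arrays above both controls, and by rank 2 of the 6.

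Crp encodes C-reactive protein, the pentraxin that binds phosphocholine on microbes and damaged cells and that in the rat is present in plasma at rest. Its 2 bright probe sets had the largest ARB differences of all members. M13101cds_f_at read 1531.5 and 5940.0 on the controls, 5505.8 and 538.6 on ACEI and 22437.2 and 20892.3 on ARB. U83119_f_at read 1223.1 and 4973.2, then 5504.0 and 444.3, then 24381.7 and 19243.8. Both had their highest values on the ARB arrays, by 2.80 ± 0.99 and 3.08 ± 1.05 against control and by 3.54 ± 0.99 and 3.65 ± 1.05 against ACEI. The controls differed 3.88 and 4.07 times between themselves, and on the later run day alone the ARB against control differences were 1.85 and 2.10. ACEI against control was 1.79 for M13101cds_f_at on the earlier run day and -3.26 on the later one.

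These 2 probe sets carry the sequence numbers of LINE-1 records. LINE-1 is the autonomous retrotransposon present in very many genomic copies, M13101 and U83119 are rat LINE-1 entries in GenBank (background knowledge, not in the files), and the suffix f marks probes shared by a sequence family. The array holds 13 probe sets from such LINE-1 records, listed after the values had been seen. They include the 1 probe set that carried a member's symbol beside another. All 13 LINE-1 probe sets were higher on ARB than on control, with a median difference of 2.43, had their lowest value on ACEI 2 and read higher on control 2 than on control 1. Over the 6 arrays M13101cds_f_at correlated with the unnamed LINE-1 probe sets X53581cds#5_f_at (r = 0.9988) and M13100cds#6_f_at (0.9975) about as closely as with U83119_f_at (0.9985). By the named-gene rule the nearest genes were Nrg1 (0.9948), Prrc2c (0.9944), Fen1 (0.9942), Ppp2r2c (0.9924) and Rpl19l4 (0.9922), the last read by X07686cds_s_at, itself from a LINE-1 record. These correlations describe 6 arrays that share depth and background. Whether the 2 probe sets also hold probes for Crp was not tested, because probe sequences were not used here.

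The only Crp probe set outside the LINE-1 records, rc_AA818144_at, was dim. It read 129.5 and 226.9 on the controls, 78.8 and 80.8 on ACEI and 782.3 and 353.4 on ARB. Its ARB arrays were above all others, by 1.24 against control and 1.87 against ACEI, but it was just under the filter (mean log2 8.24 against a limit of 8.29) and has no SE. Its pattern correlated at 0.807 with M13101cds_f_at. The difference shrank to 0.63 after quantile and 0.53 after cyclic loess normalization, and by rank ARB 2 was below control 2. The foreign-transcript controls reached 545.3 on ARB 1 and 522.9 on ARB 2, so that the value on ARB 2 was below the brightest of them.

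**Figure D2:**
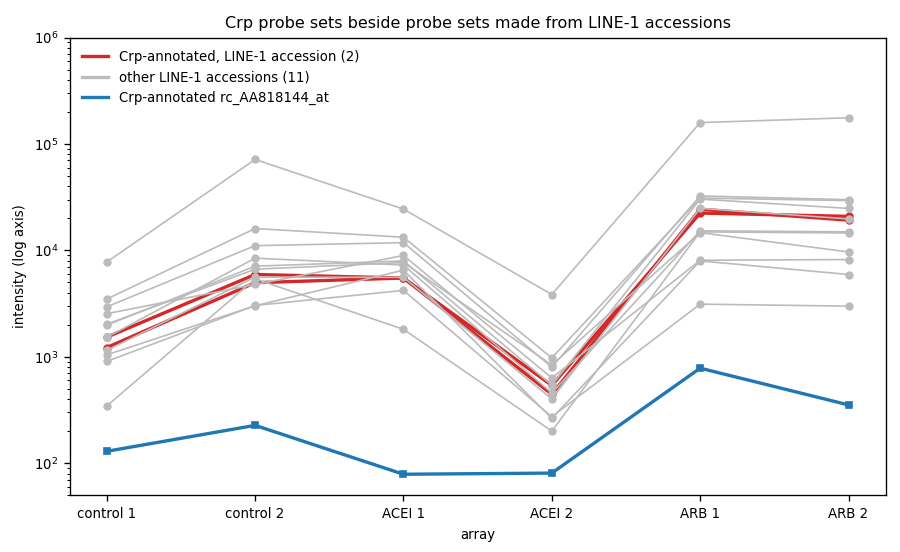
Intensity (log axis) on each array of the 2 Crp probe sets from LINE-1 records (red), the other 11 LINE-1 probe sets (grey) and the remaining Crp probe set rc_AA818144_at (blue); lines join 1 probe set. The red and grey lines share their low point on ACEI 2 and their gap between the controls, while the blue line stays between 78.8 and 782.3.

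Alb, the main carrier protein of plasma and a negative acute phase gene, had 4 dim probe sets, all under the filter. rc_AA860062_at read 79.3 and 162.4 on the controls, 145.0 and 10.7 on ACEI and 649.0 and 593.5 on ARB, a difference of 1.78 from control and 2.21 from ACEI. Both ARB arrays lay above the other 4, also by rank, and the difference was 1.18 after quantile and 1.07 after cyclic loess normalization. It was 2.07 without control 2 and 1.49 without control 1. The other 3 Alb probe sets were higher on both ARB arrays than on every other array by intensity, by 0.46 to 1.00 against control, and none of them lay above both controls by rank. For rc_AA860062_g_at the difference was -0.01 after quantile normalization. rc_AA866237_s_at had 129.8 on ARB 1 and 523.0 on ARB 2 against 105.6 and 83.0 on the controls, so most of its difference came from 1 array: it was 0.26 without ARB 2.

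Cp encodes ceruloplasmin, the copper ferroxidase that helps load iron onto transferrin. Its 3 probe sets disagreed. Y12178_at read 136.8 and 135.0 on the controls, 118.2 and 116.7 on ACEI and 390.2 and 410.3 on ARB, close together within each pair, and an ARB against control difference of 1.12. rc_AA817854_s_at read 140.8 and 102.0, then 196.5 and 167.6, then 376.1 and 465.0, a difference of 1.27. On both, the ARB arrays lay above all others, also above both controls by rank, and the differences were 0.46 and 0.63 after quantile normalization. L33869_at was higher on control 2 than anywhere else: it read 389.3 and 1755.2, then 336.0 and 177.4, then 463.3 and 522.4. Its ARB against control difference of -0.69 ± 0.66 was 0.28 without control 2, and its ACEI against control difference of -1.48 ± 0.66 was -0.51 without it. Its pattern correlated at 0.85 with that of the A2m probe set M23566exon_s_at, which also peaked on control 2.

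Hp encodes haptoglobin, which binds free haemoglobin, and its probe set K01933_at had a narrow range. It read 1030.6 and 769.3 on the controls, 617.1 and 707.0 on ACEI and 1103.3 and 1399.0 on ARB. The ARB arrays were above and the ACEI arrays below both controls, by 0.44 ± 0.45 and -0.39 ± 0.45, each about the size of its SE. The ARB against control difference of Hp was 0.19 after quantile normalization and -0.27 after each array was divided by its median. Apoa1, the main protein of high-density lipoprotein, read 269.9 and 390.4, then 268.1 and 206.4, then 312.9 and 442.5 on J02597cds_s_at, so that ARB and control overlapped (0.16 ± 0.46, and -0.52 after quantile normalization). Its dim second probe set M00001_i_at read 80.7 and 212.0 on ARB against 25.5 and 48.1 on the controls.

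Fgb, Orm1 and Ambp were read only by probe sets under the filter. Fgb encodes the beta chain of fibrinogen, and neither of its probe sets separated ARB from control: M35602_at read 10.4 and 151.4 on the controls and 169.0 and 76.9 on ARB, and U05675_at read 12.8 and 15.3 against 15.0 and 200.7. The difference of M35602_at was 0.42, and -0.21 after quantile normalization. Orm1, the drug-binding orosomucoid, read 166.0 and 210.9 on the controls, 179.4 and 70.4 on ACEI and 533.8 and 144.8 on ARB. It was highest on ARB 1 and below both controls on ARB 2, and its ARB against control difference of 0.46 was -0.18 after quantile normalization. Ambp, the precursor of alpha-1-microglobulin and bikunin, read 42.3 and 45.3, then 63.5 and 34.7, then 108.2 and 110.0 on S87544_at, a difference of 0.57 that was -0.04 after quantile normalization and became a value below both controls by rank. S87544_g_at read 31.8 on ARB 1 and 532.8 on ARB 2 against 24.9 and 143.8 on the controls, so the groups overlapped.

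The members were set against the higher background of the ARB arrays. On ARB 1 and ARB 2, 15 and 14 of the 24 members read below the brightest foreign-transcript control, against 5 to 12 on the other arrays. The 22 members outside the LINE-1 records had a median intensity of 117.5 and 147.6 on the controls, 131.6 and 64.5 on ACEI and 344.5 and 426.4 on ARB. The 62 probe sets for olfactory receptor genes, picked after their values were seen, had medians of 213.7 and 296.8, then 295.4 and 106.8, then 752.1 and 714.2. Of these, 51 of 62 had both ARB arrays above both controls (43.9% of all probe sets did). The 3 antisense Gapdh controls had medians of 249.0 to 481.7 on control and ACEI arrays and 3528 and 3529 on ARB. The 3 antisense beta-actin controls did not follow them, with medians of 587.6 and 212.9 on control, 392.4 and 517.3 on ACEI and 163.2 and 446.2 on ARB. What each of these sets measures, and its part in the members' values, was not tested.

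**Figure D3:**
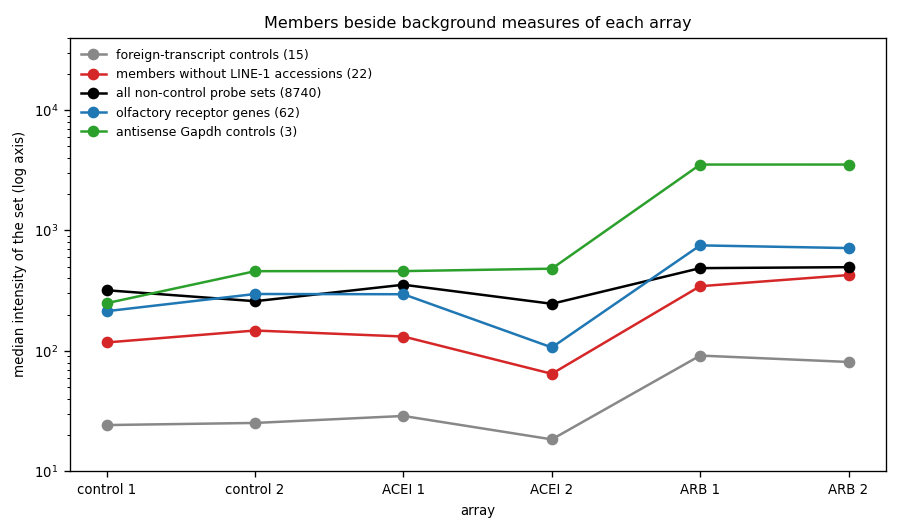
Median intensity (log axis) on each array of the 22 members outside the LINE-1 records, of all non-control probe sets, and of 3 other sets: foreign-transcript controls, olfactory receptor genes and antisense Gapdh controls. All 5 medians are higher on both ARB arrays than on the other 4, for the members by 344.5 and 426.4 against at most 147.6.

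Brightness also mattered for what a difference of this kind is worth. When all probe sets were divided into 5 equal groups by mean log2 intensity, the median ARB against control difference ran from 0.59, 0.72 and 0.56 in the 3 dimmer groups to 0.27 and -0.18 in the brighter ones. The 8 members of the dimmest group had a median of 0.52, and 3 of the 8 exceeded the median of their group. The 7 of the next group had a median of 1.12, and 6 of them exceeded theirs. The 2 members of the middle group, of Cp and Apoa1, had a median of -0.27 and were both below that of their group, and all 3 of the fourth group were above theirs. In the brightest group the 4 members were both LINE-1 probe sets and 2 of A2m, with a median of 2.18, and 1 of the A2m probe sets was at -0.99.

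**Figure D4:**
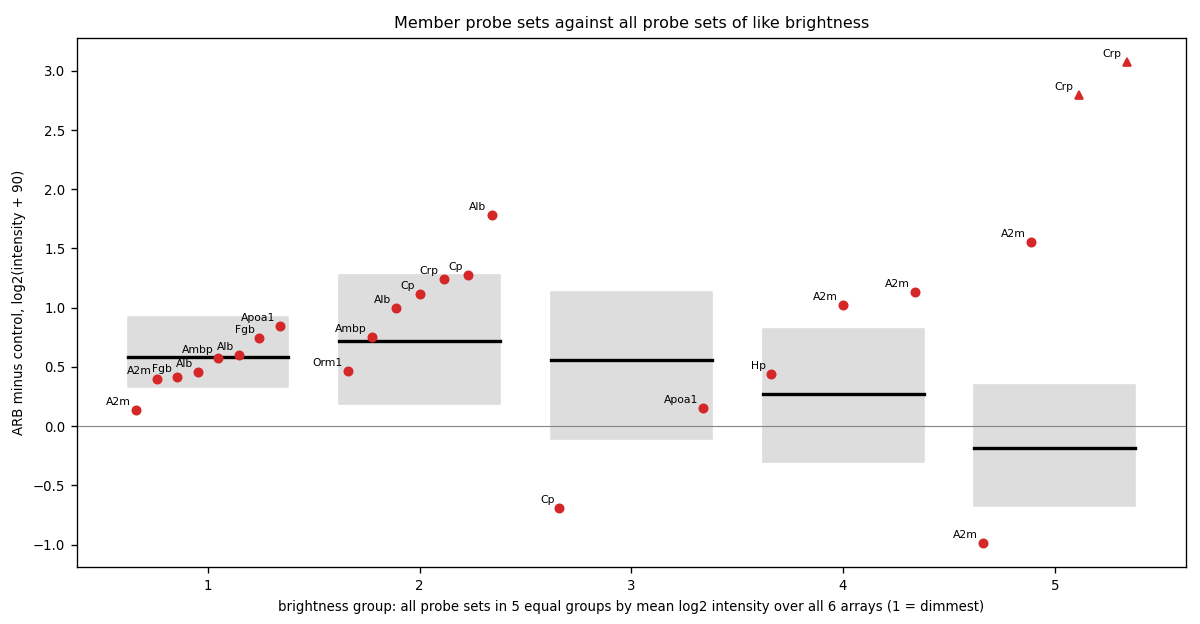
ARB minus control difference on the log2(intensity + 90) scale of each member (points; triangles for the 2 Crp probe sets from LINE-1 records) in its brightness group (all probe sets in 5 equal groups by mean intensity); black bars are the median and grey boxes the range from the lower to the upper quartile of all probe sets in that group. Most dim members lie in or near the grey boxes, while 3 probe sets of A2m, the 2 triangles and rc_AA860062_at of Alb lie above theirs. L33869_at of Cp and M23566exon_s_at and rc_AI113046_at of A2m lie below theirs.

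Other liver plasma protein genes were taken from a list of 81, of which 54 were measured and 26 passed the filter (1 probe set per gene). Of these 26, 20 were higher on ARB than on control (76.9%, against 58.1% of all tested probe sets), with a median of 0.76. The count was 19 of 26 without either control array and after quantile normalization, where 46.9% of all tested probe sets were higher. At an unadjusted p under 0.05, 6 were higher and 1 lower (12.6% and 4.69% of all tested probe sets), and none passed the adjusted threshold. Some of the 26, such as Gc, passed the filter on the mean of all 6 arrays only through their ARB values. Nothing is therefore read from these counts. Gc, the vitamin D binding protein, read 78.5 and 174.5 on the controls, 147.3 and 133.3 on ACEI and 951.4 and 706.1 on ARB (2.11 ± 0.47). Apob, the protein of low-density lipoprotein, differed by 1.80 ± 0.46, and its other 4 probe sets by 0.68 to 1.98. Ttr, which carries thyroid hormone and retinol binding protein and is made by liver and choroid plexus, read 30926.9 and 92147.7, then 38252.0 and 34631.9, then 202386.1 and 201474.0 (1.92 ± 0.58). Apoa2, under the filter, differed by 1.77.

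Genes that control the acute phase response lay on both sides of 0. Of 35 listed, 27 were measured and 20 tested: 10 of the 20 were higher on ARB than on control (58.1% of all tested probe sets were), with a median of -0.02, 2 higher and 2 lower at an unadjusted p under 0.05 and none at the adjusted one. Without control 2 the count was 7 of 20 (56.5% of all tested probe sets) and without control 1 it was 12 of 20 (60.7%). Il1b, an inducer of the response, read 3426.9 and 9034.0 on the controls, 870.1 and 1798.0 on ACEI and 1367.8 and 1500.9 on ARB, lower than both controls on all 4 treated arrays. Il6, the main inducer in liver and under the filter, read 198.7 and 1386.2 on the controls, 212.0 and 101.1 on ACEI and 34.2 and 116.8 on ARB. The ARB against control difference of this Il6 probe set was -2.03, with its high value on control 2 alone. The other Il6 probe set differed by -0.39. Nfkbia, the inhibitor that NF-kappaB itself induces, differed by -2.45 ± 0.55 between ARB and control, and Hnf4a, a liver transcription factor, by 1.30 ± 0.52, while its other 2 probe sets differed by -0.01 and 0.54. Receptors and iron partners of plasma proteins (29 listed, 19 measured, 13 tested) were higher on ARB in 4 of 13, with a median of -0.47 and 0 higher and 1 lower at an unadjusted p under 0.05. Among them Ireb2, which senses iron, differed by 1.53 ± 0.70, and Fcgr2b, an inhibitory Fc receptor, by -1.42 ± 0.60. The endocytic receptor Lrp2 and the liver receptor Asgr1, both under the filter, differed by 1.04 and 1.09.

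Markers of other cells were read beside the members. Of 29 hepatocyte markers that are no plasma proteins, 21 were measured and 8 tested. On ARB 7 of the 8 were higher than on control, as were 58.1% of all tested probe sets. At an unadjusted p under 0.05, 4 of the hepatocyte markers were higher, against 12.6% of all tested probe sets. The filter used the mean over all 6 arrays, so a gene dim on control and ACEI could pass through its ARB values. Cyp2c11, Cps1 and Hal passed in this way, and nothing is read from these counts. The summed intensity of the measured hepatocyte markers was 2997 and 3429 on the controls, 4132 and 1824 on ACEI and 9312 and 7857 on ARB. Cyp2c11, a cytochrome of the male rat liver, read 69.7 and 115.5, then 124.0 and 15.8, then 2360.8 and 1469.5 (3.43 ± 0.53), while its other 2 probe sets differed by 0.68 and 0.88. Hal and Cps1, enzymes of histidine breakdown and of the urea cycle, differed by 2.08 ± 0.56 and 1.55 ± 0.53, but their other probe sets by -0.31 to 0.20 and -0.28 to 0.94. Tdo2, of tryptophan breakdown and under the filter, differed by 1.49. No hepatocyte marker was listed at 0, but those not tested were under the filter. Without detection calls, a value above 0 does not show that a transcript was present.

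For the lists below, 58.1% of all tested probe sets were higher on ARB than on control, 12.6% at an unadjusted p under 0.05. In these lists, too, genes dim on control and ACEI could pass the filter through their ARB values. Neuron markers (22 listed, 19 measured, 11 tested) were higher on ARB in 11 of 11, 6 at an unadjusted p under 0.05. The largest difference among the neuron markers was that of Uchl1 (1.77 ± 0.49). Their sums were 3524 and 5475 on control, 8162 and 6678 on ACEI and 10216 and 12599 on ARB. The choroid plexus list (12 listed, 9 measured, 8 tested) was higher in 4 of 8 and summed to 61684 and 125458 on control, 84479 and 59827 on ACEI and 241899 and 241558 on ARB, where Ttr read 202386.1 and 201474.0. The ion channel Kcnj13 differed by 1.26, the serotonin receptor Htr2c by 1.19 ± 0.75 and the water channel Aqp1 by -1.06 ± 0.58. Endothelial markers (20 listed, 15 measured and tested) were higher on ARB in 6 of 15, with Icam2 at -1.84 ± 0.45. The count was 3 without control 2 (56.5% of all tested probe sets were higher) and 11 without control 1 (60.7%). The endothelial sums were 98665 and 194853 on control, 102823 and 116697 on ACEI and 87531 and 100684 on ARB. The median intensities of the same markers were 3014 and 335.1, then 2639 and 2225, then 1190 and 1036. Control 2 was thus highest by sum, which a few bright markers carry, and lowest by median. Of the tested markers of astrocytes 2 of 7 were higher, of pericytes and smooth muscle 2 of 10, of microglia and macrophages 2 of 7 and of erythroid and blood cells 1 of 7. Their medians were -0.56, -0.39, -0.74 and -1.58, and 0 of any list passed the adjusted threshold. The part of any of these cells in the members' values was not tested.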

How the data were processed

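Total RNA of brain capillaries was measured on 6 RG_U34A arrays. The deposited table gives 1 linear intensity per probe set and array, with no detection calls. Summary software and background correction are not given in the sources used here. Run day, chip lot and fluidics protocol are per the file headers. The array annotation named 7018 of 8799 probe sets with 1 symbol, 308 with several and 1473 with none. 59 control probe sets were left out of tests. Intensities were transformed as log2(value + 90), the dimmest 40% by mean were dropped (15 of 24 members, which have no SE), and limma 3.58.1 (R 4.3.3) fitted the other 5244 with 1 mean per group, two-sided moderated p-values and Benjamini-Hochberg adjustment. The test was tried on simulated data. No batch correction was applied. The filter used the mean over all 6 arrays, so genes dim on control and ACEI could pass it through their ARB values. This holds for every count over the tested genes of a list. Alternatives were other offsets, filters and normalizations, array weights, blocks by replicate number or run day, the later run day alone, and leaving out each array.

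The members and all gene lists were chosen with earlier results of these data known. Named genes were every member probe set, up to 4 genes per list with the largest absolute ARB against control difference, and the 5 genes most like the brightest A2m and Crp probe sets; genes such as Slc2a1, the LINE-1 records and the olfactory receptors were chosen after their values were seen. Promoters come from RefSeq (GRCr8). The number of arrays limits the precision.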

Additional observations from a re-analysis of the deposited data

Results flagged for a closer look

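A pair of signals lay outside the members. The 3 antisense Gapdh control probe sets, which enter no test between groups, had a mean of array medians of 354.1 on control, 470.7 on ACEI and 3529 on ARB. The 11 LINE-1 probe sets that were not members had a mean of array medians of 4321 on control, 4117 on ACEI and 15116 on ARB. Among these 11 was 1 that carried a member's symbol beside another. On ARB each set was above its level in the control arrays, while on ACEI the LINE-1 probe sets were slightly below theirs. With 2 arrays per group no outlier check within a group was possible.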

How the results depend on the processing

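The adjusted calls (0 in each contrast) were 4, 3 and 4 for ARB against control, ACEI against control and ARB against ACEI with the offset at the median, and 4, 2 and 1 with the replicate number as a block; ARB against control had 3 after each array was divided by its median, and ARB against ACEI had 518 with array weights and 406 in a fit of those 2 groups. Leaving out 1 array gave 0 to 91, 0 to 256 (256 without control 1) and 0 to 334 (334 without control 1, 316 without control 2). Same-numbered arrays did not deviate together (correlations 0.05, -0.02 and -0.00), and the labels tie no numbers to a batch, although control and ACEI arrays of 1 number share run day, chip lot and fluidics protocol. The block left the members' medians at 0.75, -0.35 and 0.82. The ARB against control median of 0.75 was 1.54 with no offset, 0.35 with the offset at the median, 0.23 after quantile and 0.19 after cyclic loess normalization and 0.34 after division by the array median, where the median of all probe sets was 0.69, 0.21, 0.01, -0.00 and -0.07. The ARB against ACEI median of 0.82 was 1.54, 0.45, 0.27, 0.29 and 0.35 in the same order and 1.10 on the later run day. The ACEI against control median of -0.35 was -0.68 on that day. Without 1 array the medians ranged from 0.50 to 0.96, from -0.51 to 0.011 (0.011 without control 2, 0.0043 without ACEI 2) and from 0.66 to 1.10. The 16 members above both controls were 7 by rank and 7 after quantile normalization, 14 without the LINE-1 records and 16 to 22 without 1 array, where 54.22% to 60.03% of all probe sets qualified in place of 43.9%. The median percentile of the members within an array, 33.8 and 39.7 on control, 33.9 and 30.1 on ACEI and 43.4 and 47.7 on ARB, was 55.8, 64.5, 62.6, 35.3, 66.8 and 65.0 among tested probe sets only, since 9 members remain there. Single members changed sign in 35 of 408 values for ARB against control, 25 for ACEI against control and 22 for ARB against ACEI. The cause of these shifts was not tested. The number of arrays and signal over background both limit the values: 14 or more members on each ARB array read below the brightest foreign-transcript control. The alternatives for the 16 and for the gene list counts were chosen after the data had been seen.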
